A study of Homo sapiens with 10 samples.

Results

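Interferon signalling starts with secreted ligands, passes through receptor chains and ends in transcription factors of the STAT and IRF families, and 9 genes of that chain are described here. They were chosen by symbol in the deposited count table, which holds 60651 genes, and all 9 were found: the ligands IFNB1 and IFNL1, the receptor chains IFNAR1, IFNAR2 and IFNLR1, and the factors STAT2, IRF9, IRF1 and IRF7. RNA-seq libraries of cultured human cells were made in 5 groups of 2. HT29, an established colorectal cancer cell line, received 10 µM of VXN or the solvent DMSO, and t-hESC, a line labelled as transformed pluripotent stem cells, received 10 µM of VXN, 1 µM of BIX or DMSO. The doses and compounds stand in the sample titles, while the treatment field reads 48 hours and DMSO for every sample. The labels give VXN as a code name only. Inhibitors of G9a and GLP, the enzymes that place methyl groups on histone H3, include a compound known as BIX. Each line is a single line, so differences between HT29 and t-hESC are differences between these lines and not between tissues.

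As background, cells that sense foreign nucleic acid switch on interferon beta (IFNB1, a type I interferon) and interferon lambda 1 (IFNL1, a type III interferon). Type I interferons bind a receptor of the IFNAR1 and IFNAR2 chains, and type III interferons bind one of IFNLR1 and IL10RB. Both receptors activate the kinases JAK1 and TYK2, which phosphorylate STAT proteins, STAT2 among them. STAT2 and IRF9 are parts of ISGF3, the complex that drives interferon-stimulated genes through elements in their promoters. IRF7 is itself induced by interferon and amplifies ligand transcription, and IRF1 is a factor best known as an early target of interferon gamma. Pluripotent stem cells are known for a weak interferon response.

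The libraries held between 13137026 and 24492838 gene counts. Of the pluripotent stem cell markers 7 of 8 had a mean of at least 1 CPM (a gene's counts relative to the TMM-scaled library total) in every t-hESC group, with ZFP42 close to 0, and their summed level was 4.27 to 11.3 CPM in HT29 libraries against 4300 to 4750 CPM in t-hESC libraries. Of the colorectal epithelium markers 6 of 8 reached 1 CPM in both HT29 groups, with CDX1 and CDH17 below it. The list summed to 5500 to 5510 CPM under VXN and 7050 to 7120 CPM under DMSO, most of it KRT8. Its genes did not move alike in HT29 under VXN: KRT8, VIL1 and EPCAM were called lower and KRT20 higher, while CDX2, CDH17 and LGALS4 were not called. The leukocyte marker list summed to 18.3 to 18.4 CPM in HT29 under VXN and 7.17 to 7.53 CPM under DMSO, most of it CD68, while PTPRC, the gene that defines leukocytes, had 1 count under VXN and 2 under DMSO. Fibroblast markers summed to 7.55 to 9.39 CPM in HT29 under VXN and 3.58 to 4.49 CPM under DMSO. Their sums were far higher in t-hESC, at 948 to 950 CPM under VXN, 803 to 843 CPM under BIX and 681 CPM under DMSO, most of it THY1. The summed pluripotency markers in the HT29 VXN libraries were 0.173% and 0.241% of the t-hESC DMSO level, against 0.092% and 0.0908% in the HT29 DMSO libraries. A share of 0.241% of the highest t-hESC level would amount to 0.0373 CPM of IFNAR2 and 0.107 CPM of STAT2, beside rises of 3.16 and 54.2 CPM in HT29 under VXN. These markers did not move alike in HT29 under VXN: LIN28A, DPPA4 and TDGF1 were called higher, while POU5F1, SOX2 and L1TD1 were not called. Their sum is therefore no measured share of t-hESC RNA. Whether the HT29 libraries held t-hESC RNA was not tested, nor was the part of the leukocyte and fibroblast markers in the results.

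Promoter sequence was matched by symbol for 7 of the 9 genes, all but IFNAR2 and IRF7, from RefSeq on GRCh38.p14. In the 250 bases before each annotated start, 4 motifs were searched on both strands: AAANNGAAA, a core of the interferon-stimulated response element; AANNGAAA, the shorter core bound by IRF proteins, which lies inside the first; TTCNNNGAA, the gamma-activated site bound by STAT dimers; and GGAAATTCC, a core of an NF-kappaB site. The stretches below are from the 4 genes that hold such letters and whose transcripts changed most in HT29. Capitals mark the matches, and each stretch is written 5′ to 3′ on the strand of its gene.
IFNB1: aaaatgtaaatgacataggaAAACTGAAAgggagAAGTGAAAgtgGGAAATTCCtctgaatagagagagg
IFNL1: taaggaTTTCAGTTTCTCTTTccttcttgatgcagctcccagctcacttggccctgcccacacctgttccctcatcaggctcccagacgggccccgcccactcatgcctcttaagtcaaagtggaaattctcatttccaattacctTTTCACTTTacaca
IRF9: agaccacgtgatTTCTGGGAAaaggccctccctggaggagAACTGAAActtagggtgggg
IRF1: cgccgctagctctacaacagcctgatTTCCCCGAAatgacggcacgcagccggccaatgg

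The IFNB1 stretch (chr9:21077983-21078052, minus strand, 110 to 41 bases before the start) lies in the enhancer through which viruses are known to switch on this gene. It holds AANNGAAA at 2 places, the first of them as part of AAANNGAAA, and GGAAATTCC next to them. The IFNL1 stretch (chr19:39296187-39296346, plus strand) holds AAANNGAAA at 2 overlapping places 214 to 200 bases before the start and once more at 74 to 66 bases, all read on the opposite strand. The IRF9 stretch (chr14:24161190-24161249, plus strand) holds TTCNNNGAA and AANNGAAA, and the IRF1 stretch (chr5:132490864-132490923, minus strand) holds TTCNNNGAA. Among 35116 promoter windows of the same length, 9.2% hold AAANNGAAA, 20.3% AANNGAAA, 6.57% TTCNNNGAA and 0.413% GGAAATTCC. Of the 7 genes matched, 2 hold the first motif (IFNB1 and IFNL1), 3 the second (IFNB1, IFNL1 and IRF9), 4 the third (IFNB1, IFNLR1, IRF9 and IRF1) and 1 the last (IFNB1). In STAT2 and IFNAR1 none of these letters stands in the window. Of 29 ISGF3 target genes with a window, 24 hold AAANNGAAA in any of their windows, a count by gene, whereas the 9.2% is a share of windows. A match is a run of letters and not a measured site.

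The first question was whether VXN changed these transcripts in HT29. Both ligands appeared, and the 4 STAT and IRF genes rose together, with the largest fold changes for IRF9 and IRF7. Of the receptor chains IFNAR2 and IFNLR1 rose by smaller amounts, and IFNAR1 was not called. In all 8 of the 9 genes rose, 0 fell and 1 was not called, where a gene is called at an adjusted p under 0.05 in edgeR's quasi-likelihood test over 22495 genes. Over all those genes 33.0% were called higher and 60.0% in either direction, so a call by itself is common in this comparison and the sizes carry more than the count. IFNB1 and IFNL1 passed the filter on low counts only through HT29 under VXN. Their calls follow from that filter and add nothing to their counts.

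IFNB1 (chromosome 9, 21077104 to 21077942) had 1.57 and 1.87 CPM in the HT29 VXN libraries, from 36 and 37 counts, and 0 counts in both HT29 DMSO libraries. It was detected in these 2 of the 10 libraries. Set against the 3 counts that a sum of 0 in the DMSO group allows, the observed level under VXN was at least 27.2-fold higher. IFNL1 (chromosome 19, 39296407 to 39298673) had 2.62 and 2.89 CPM under VXN, from 60 and 57 counts, and 0 and 0.0853 CPM under DMSO, from 0 and 2 counts. The groups did not overlap, and the ratio of the summed counts was 65.5 with an exact 95% counting interval of 17.7 to 547. Such intervals cover counting error only. A floor covers that of the DMSO group alone, with the VXN counts taken as exact. In RNA from whole cultures, many cells with little of a transcript and few cells with much of it cannot be told apart.

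STAT2, the STAT protein that carries IRF9 into ISGF3 (chromosome 12, 56341597 to 56360107), had 86.9 and 87.1 CPM under VXN against 33.7 and 32.0 CPM under DMSO. Both VXN libraries stood far above both DMSO libraries, with a log2 fold change of 1.41 ± 0.050 (SE; edgeR adjusted p = 3.33e-35). IRF9, the DNA-binding part of ISGF3 (chromosome 14, 24161265 to 24166565), had 38.1 and 36.2 CPM under VXN against 4.24 and 3.75 CPM under DMSO. This was a 9.27-fold difference, a log2 fold change of 3.21 ± 0.094 (SE; edgeR adjusted p = 5.57e-40). IRF7 (chromosome 11, 612555 to 615950) had 164 and 163 CPM under VXN against 28.5 and 26.9 CPM under DMSO. The replicates lay close together and the groups were 5.9-fold apart, at a log2 fold change of 2.56 ± 0.050 (SE; edgeR adjusted p = 4.77e-50). IRF1 (chromosome 5, 132481609 to 132490773) had 65.0 and 62.3 CPM under VXN against 34.8 and 28.5 CPM under DMSO. The DMSO libraries of IRF1 were further apart than those of the other factors, and both stayed below the VXN libraries at a log2 fold change of 1.01 ± 0.061 (SE; edgeR adjusted p = 8.51e-23).

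**Figure D1:**
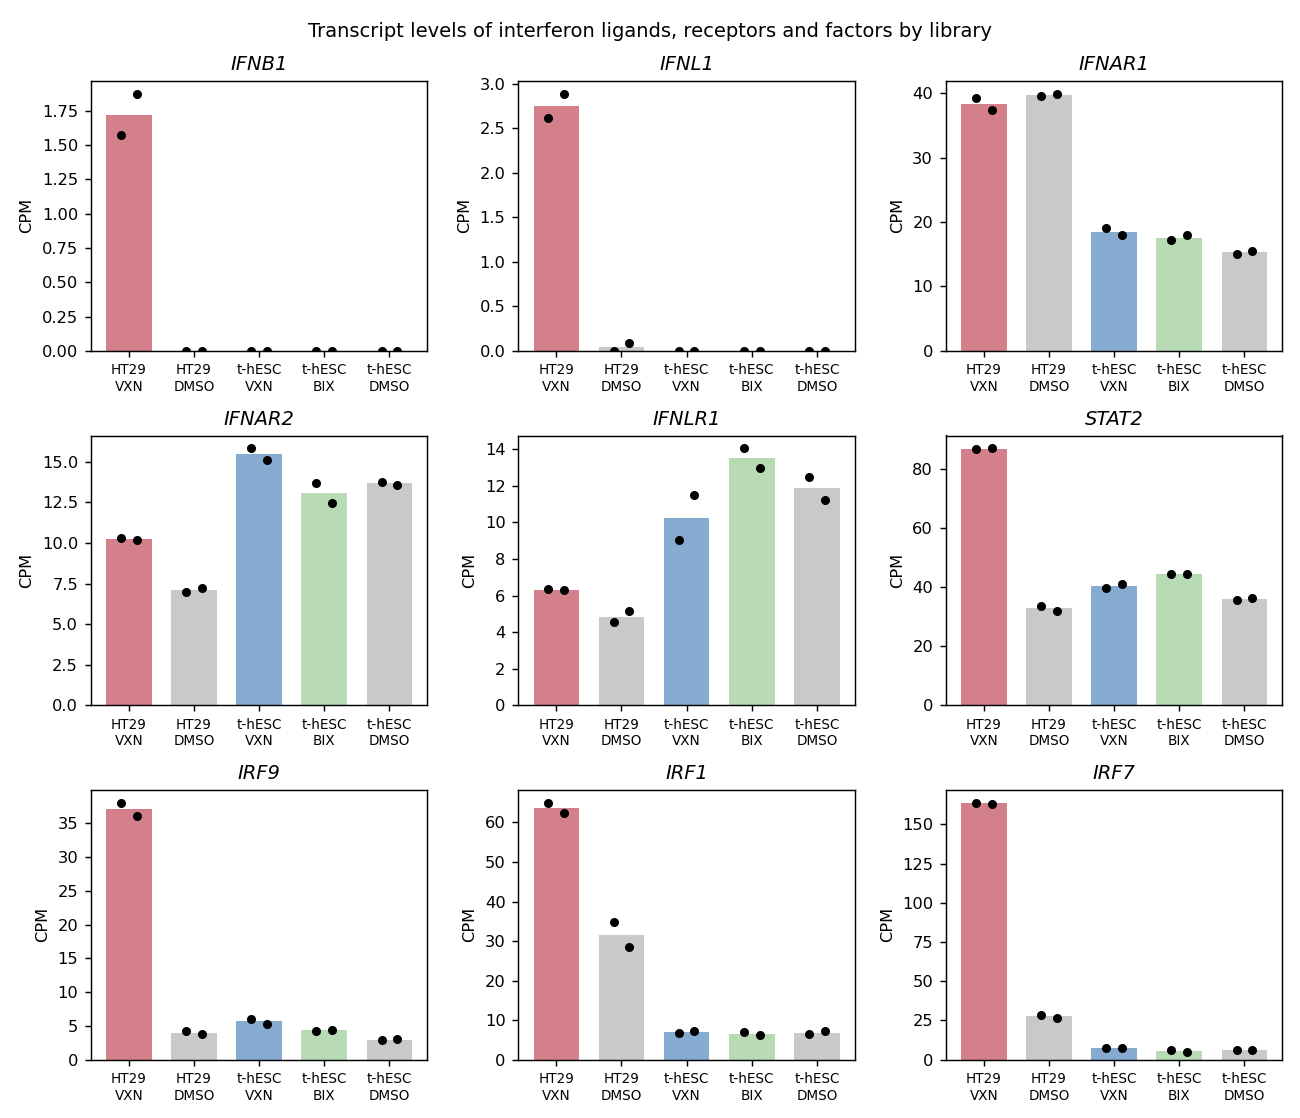
Level of each gene in CPM (y axis, from 0, one scale per panel) in the 5 groups (x axis); bars are means of 2 libraries and points are libraries. IFNB1 and IFNL1 stand above 1 CPM in HT29 under VXN and near 0 elsewhere, and STAT2, IRF9, IRF1 and IRF7 are highest in the same group.

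The receptor chains moved less. IFNAR2, the signalling chain of the type I receptor (chromosome 21, 33229938 to 33265664), had 10.3 and 10.2 CPM under VXN against 6.96 and 7.21 CPM under DMSO. The groups did not overlap, and the log2 fold change was 0.53 ± 0.11 (SE; edgeR adjusted p = 1.34e-05). IFNLR1, the chain specific to interferon lambda (chromosome 1, 24154168 to 24187289), had 6.38 and 6.28 CPM under VXN against 4.53 and 5.16 CPM under DMSO, a log2 fold change of 0.39 ± 0.14 (SE; edgeR adjusted p = 0.0117). That call was lost with DESeq2 (adjusted p = 0.119), without HT29 DMSO replicate 1 (edgeR adjusted p = 0.139) and without HT29 VXN replicate 1 (edgeR adjusted p = 0.0696). IFNAR1, the other type I chain (chromosome 21, 33324395 to 33359864), had 39.2 and 37.4 CPM under VXN against 39.5 and 39.9 CPM under DMSO. Both VXN libraries were slightly below the DMSO libraries, by a log2 value of -0.050 ± 0.058 (SE; edgeR adjusted p = 0.48). Genes annotated across IFNAR2, among them the read-through gene IFNAR2-IL10RB, could share its reads, and the library kit does not mark strand. In the authors' deposited table for this comparison 7 of the 9 genes were called higher, IFNB1 and IFNL1 among them, with IFNAR1 and IFNLR1 not called. The share of all genes called in that table was not taken, so this count stands without a background.

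The second question was what VXN did to the same genes in t-hESC. IFNB1 and IFNL1 had 0 counts in all 6 t-hESC libraries, which allows up to 0.029 CPM over the 6 libraries together. IRF9 rose, STAT2 and IFNAR1 rose by small amounts, and IFNAR2, IFNLR1, IRF1 and IRF7 were not called. That made 3 of 7 genes with counts higher and 0 lower, beside 14.5% of all genes tested called higher and 29.0% in either direction.

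IRF9 had 6.03 and 5.30 CPM in t-hESC under VXN against 2.85 and 3.06 CPM under DMSO. Both VXN libraries were above both DMSO libraries, with a log2 fold change of 0.93 ± 0.16 (SE; edgeR adjusted p = 5.54e-06), and the call held under every alternative run, with adjusted p-values up to 0.000806. In the authors' deposited table for this comparison IRF9 was called higher, 6 of the 9 genes were not called, and IFNB1 and IFNL1 have no adjusted p. IFNAR1 had 19.1 and 17.9 CPM under VXN against 15.1 and 15.6 CPM under DMSO, a log2 fold change of 0.27 ± 0.085 (SE; edgeR adjusted p = 0.012). STAT2 had 39.8 and 41.1 CPM under VXN against 35.7 and 36.4 CPM under DMSO, a log2 fold change of 0.17 ± 0.060 (SE; edgeR adjusted p = 0.0295). Neither pair of groups overlapped, but the calls of IFNAR1 and STAT2 were lost with DESeq2 (adjusted p = 0.0668 and 0.118), and that of STAT2 with upper-quartile factors or no count filter (edgeR adjusted p = 0.0644 and 0.0826). Without t-hESC DMSO replicate 1 or 2 they were lost too, with edgeR adjusted p of 0.0906 and 0.0513 for IFNAR1 and 0.162 and 0.104 for STAT2. IFNAR1 was also not called without t-hESC VXN replicate 1 (edgeR adjusted p = 0.114), nor STAT2 without t-hESC VXN replicate 2 (edgeR adjusted p = 0.175).

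The genes not called in t-hESC under VXN differed in how close their groups lay. IRF7 had 7.17 and 7.67 CPM under VXN against 6.26 and 5.93 CPM under DMSO, without overlap, at a log2 fold change of 0.29 ± 0.13 (SE; edgeR adjusted p = 0.0944). IRF1 had 6.75 and 7.27 CPM under VXN against 6.42 and 7.25 CPM under DMSO, and these groups overlapped. IFNAR2 had 15.8 and 15.1 CPM under VXN against 13.8 and 13.6 CPM under DMSO, and IFNLR1 had 9.02 and 11.5 CPM under VXN against 12.5 and 11.2 CPM under DMSO. For IFNLR1 the VXN libraries stood apart: without t-hESC VXN replicate 2, the higher one, the log2 fold change was -0.39 and called (edgeR adjusted p = 0.0335), against -0.20 with it.

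The third question was what BIX did in t-hESC. Of the 7 genes with counts STAT2 and IRF9 rose, 0 fell and 5 were not called, beside 10.9% of all genes tested called higher and 23.1% in either direction. STAT2 had 44.4 and 44.5 CPM under BIX against 35.7 and 36.4 CPM under DMSO, a log2 fold change of 0.30 ± 0.061 (SE; edgeR adjusted p = 8.49e-05). The replicates lay within 1 CPM of each other in both groups, and the call held under every alternative run, with adjusted p-values up to 0.00325. IRF9 had 4.28 and 4.47 CPM under BIX against 2.85 and 3.06 CPM under DMSO, a log2 fold change of 0.56 ± 0.18 (SE; edgeR adjusted p = 0.0172). That call was lost when t-hESC DMSO replicate 1 or 2 (edgeR adjusted p = 0.103 and 0.0612) or t-hESC BIX replicate 1 or 2 (edgeR adjusted p = 0.0649 and 0.0944) was left out. In the authors' deposited table for BIX 0 of the 7 genes with an adjusted p were called, with adjusted p of 0.146 for STAT2 and 0.285 for IRF9. IFNB1 and IFNL1 have no adjusted p there.

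No receptor chain was called under BIX. IFNAR1 had 17.2 and 18.0 CPM under BIX against 15.1 and 15.6 CPM under DMSO, a log2 fold change of 0.19 ± 0.089 (SE; edgeR adjusted p = 0.115). IFNLR1 had 14.1 and 12.98 CPM under BIX against 12.5 and 11.2 CPM under DMSO, a log2 fold change of 0.20 ± 0.11 (SE; edgeR adjusted p = 0.206). Both BIX groups lay above DMSO without a call. IFNAR2 had 13.7 and 12.5 CPM under BIX against 13.8 and 13.6 CPM under DMSO, IRF1 had 7.06 and 6.16 CPM against 6.42 and 7.25 CPM, and IRF7 had 6.49 and 4.84 CPM against 6.26 and 5.93 CPM. These 3 genes overlapped between the groups. The comparisons of VXN and BIX with DMSO share the 2 DMSO libraries, and the doses differ (10 µM and 1 µM), so the compounds were not tested against each other.

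**Figure D2:**
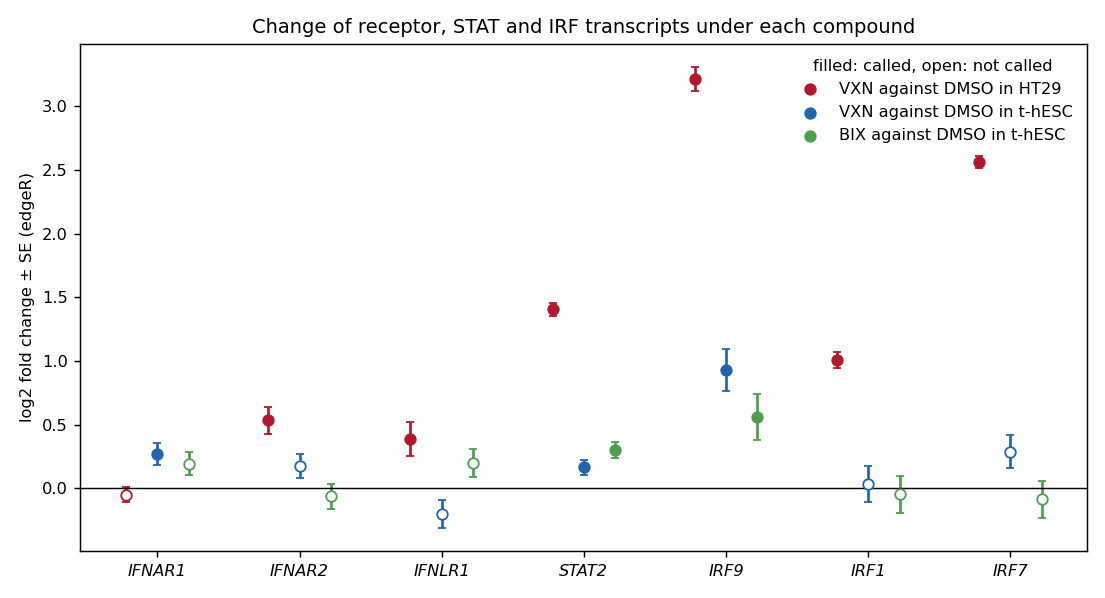
Log2 fold change against DMSO (y axis; points, with bars for the standard error) of the 7 genes with counts in both lines (x axis), for VXN in HT29, VXN in t-hESC and BIX in t-hESC; filled points have an edgeR adjusted p under 0.05. STAT2, IRF9, IRF1 and IRF7 lie between 1.01 and 3.21 in HT29, while the highest point in t-hESC is IRF9 under VXN at 0.93.

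The fourth comparison tested whether the VXN effect differed between the lines. For IRF9, IRF7, STAT2 and IRF1 it was higher in HT29 than in t-hESC, and for IFNAR1 it was lower. Over all 7 genes with counts in both lines 6 differences were called higher and 1 lower, beside 22.9% and 20.3% of all genes tested, or 43.2% in either direction. On the log2 scale IRF9 changed by 3.21 in HT29 and 0.93 in t-hESC, a difference of 2.28 ± 0.21 (SE; edgeR adjusted p = 7.56e-15). IRF7 changed by 2.56 in HT29 and 0.29 in t-hESC, a difference of 2.27 ± 0.15 (SE; edgeR adjusted p = 1.59e-21). The differences were 1.24 ± 0.079 for STAT2 and 0.98 ± 0.15 for IRF1 (SE). These 4 differences stayed called under every alternative run.

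The receptor differences were smaller. IFNLR1 differed by 0.59 ± 0.18 (SE; edgeR adjusted p = 0.00461) and IFNAR2 by 0.36 ± 0.14 (SE; edgeR adjusted p = 0.0342). IFNAR1 differed by -0.32 ± 0.10 (SE; edgeR adjusted p = 0.00882), a gene whose level was not called changed in HT29. The call of IFNAR2 was lost in 10 of the 17 alternatives, among them DESeq2 (adjusted p = 0.262), size factors of the DESeq2 type (edgeR adjusted p = 0.0626) and no count filter (edgeR adjusted p = 0.11). It was lost without either t-hESC DMSO, HT29 DMSO or HT29 VXN library and without t-hESC VXN replicate 2, with edgeR adjusted p of 0.0592 to 0.114. IFNLR1 was not called with DESeq2 (adjusted p = 0.0821) or without t-hESC VXN replicate 1 (edgeR adjusted p = 0.0621), and IFNAR1 was not called without t-hESC VXN replicate 1 (edgeR adjusted p = 0.0529). IFNB1 and IFNL1 give no difference of fold changes, since t-hESC has no counts of them.

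The last comparison set the DMSO groups of the lines side by side. IRF1 and IRF7 were higher in HT29 and so was the receptor chain IFNAR1, while IFNAR2 and IFNLR1 were lower in HT29. With IRF9 and STAT2, 4 of 7 genes were called higher and 3 lower, beside 38.9% and 45.6% of all genes tested. IRF1 averaged 31.6 ± 4.5 CPM in HT29 and 6.83 ± 0.58 CPM in t-hESC under DMSO (SD, n = 2), and IRF7 averaged 27.7 ± 1.1 CPM in HT29 and 6.09 ± 0.23 CPM in t-hESC (SD, n = 2). Their log2 differences were 2.20 ± 0.095 and 2.18 ± 0.092 (SE). IFNAR1 averaged 39.7 ± 0.26 CPM in HT29 and 15.3 ± 0.34 CPM in t-hESC (SD, n = 2), a log2 difference of 1.37 ± 0.070 (SE). The other chains went the opposite way: IFNAR2 averaged 7.08 ± 0.18 CPM in HT29 and 13.7 ± 0.13 CPM in t-hESC, and IFNLR1 averaged 4.84 ± 0.45 CPM in HT29 and 11.9 ± 0.86 CPM in t-hESC (SD, n = 2). All 5 had edgeR adjusted p of 4.46e-13 or lower. STAT2 and IRF9 differed little, by -0.14 ± 0.059 and 0.43 ± 0.17 (SE; edgeR adjusted p = 0.0278 and 0.0145), and DESeq2 called neither (adjusted p = 0.0889 and 0.0535). STAT2 was also not called with no count filter (edgeR adjusted p = 0.153), or without t-hESC DMSO replicate 1 or 2, HT29 DMSO replicate 2 or either HT29 VXN library, with edgeR adjusted p of 0.0501 to 0.195. IRF9 was not called without t-hESC DMSO replicate 1 (edgeR adjusted p = 0.0703) or HT29 DMSO replicate 1 (edgeR adjusted p = 0.117), or with upper-quartile factors (edgeR adjusted p = 0.0686). Of all genes tested 84.4% were called in this comparison, and their median log2 difference was -0.122, or -0.233 with upper-quartile factors.

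The order of the 5 groups differed by gene. For IRF1 and IRF7 it was HT29 VXN, then HT29 DMSO, then the 3 t-hESC groups. Among those, overlap joined all 3 for IRF1, and for IRF7 it joined DMSO and BIX. For STAT2 and IRF9 HT29 VXN was again highest, and HT29 DMSO lay among or below the t-hESC groups: STAT2 averaged 32.8 ± 1.2 CPM in HT29 DMSO against 36.1 ± 0.48 CPM in t-hESC DMSO (SD, n = 2). For IFNAR2 and IFNLR1 all 3 t-hESC groups were above both HT29 groups, so the rise under VXN in HT29 left these chains below their t-hESC level. Among the receptors the neighbouring groups whose libraries overlapped were t-hESC VXN and BIX for IFNAR1, t-hESC DMSO and BIX for IFNAR2, and t-hESC DMSO and VXN for IFNLR1.

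The genes around these 9 were taken from lists of 96 other genes of the pathway. Among 20 further ligands IFNL2, IFNL3 and IFNE passed the filter on low counts and the other 17 did not. All 3 were called higher in HT29 under VXN, beside 33.0% of all genes tested. IFNL2 and IFNL3 passed only through their counts in that group, so their calls follow from the filter. IFNL2 had 15 and 25 counts and IFNL3 26 and 13 counts under VXN against 0 in both DMSO libraries. Over a floor of 3 counts per group, the observed levels of IFNL2 and IFNL3 were at least 14.9-fold and 14.6-fold higher. These 2 genes are near-identical copies, so the split of reads between them is uncertain. IFNE, an epithelial type I interferon gene, had 47 and 58 counts under VXN against 26 and 28 under DMSO, a ratio of 2.18 with an exact 95% counting interval of 1.55 to 3.08. None of the 13 IFNA genes had more than 1 count in a library.

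The calls of this paragraph are for HT29 under VXN, where 33.0% of all genes tested were called higher, 26.9% lower and 60.0% in either direction. Of the 3 receptor kinases JAK1 and JAK2 rose and TYK2 was not called. JAK2 had 14.6 and 16.7 CPM under VXN against 5.06 and 4.61 CPM under DMSO. STAT5A averaged 6.23 CPM under VXN and 3.47 CPM under DMSO, a log2 fold change of 0.84 ± 0.15 (SE; edgeR adjusted p = 9.83e-07), while STAT5B was not called. Among other IRF genes IRF3 and IRF5 rose, at log2 fold changes of 0.19 and 0.76. The receptor partner IL10RB was not called, while IFNGR2 rose and IFNGR1 fell, at log2 fold changes of 0.34 and -0.21.

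Of 12 inhibitors 5 were higher and 4 lower in HT29 under VXN, near the 33.0% higher and 26.9% lower among all genes tested, so the count is no result about this list. USP18, which blocks signalling at IFNAR2, averaged 21.9 CPM under VXN and 3.04 CPM under DMSO, a log2 fold change of 2.85 ± 0.12, and SOCS3, an inhibitor of receptor kinases, rose by 2.50 ± 0.31 (SE). PIAS1, an inhibitor of STAT proteins, fell by 0.29 on the log2 scale. Of 11 adaptors and kinases that lead from sensors to the ligands 5 were higher and 4 lower, which is also near those shares. TICAM1, the adaptor of TLR3, rose by 1.01 ± 0.091, AZI2 rose by 0.57 and TANK fell by 0.49 (SE for TICAM1). Of 35 target genes of ISGF3, 34 rose and IFITM2 was not called, beside 33.0% of all genes tested called higher. Leaving aside 6 targets with at most 3 counts under DMSO, the median log2 fold change of the other 29 was 3.75, against 0.055 over all genes tested. They ran from -0.13 for IFITM2, which was not called, to 7.0 for IFI6, and the lowest called value was 1.42 for SP110. IFI6 had 212 and 213 CPM under VXN against 1.77 and 1.54 CPM under DMSO, and IFI27 and OAS3 rose by 6.03 and 3.08.

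In t-hESC the same lists moved little. Under VXN 7 of 34 ISGF3 targets with enough counts rose, 1 fell and 26 were not called, beside 14.5% higher and 14.6% lower among all genes tested, with a median log2 fold change of 0.11 against 0.004 over all genes. IFITM1 and ISG15 rose by 0.31 and 0.29, and IFITM2 fell by 0.24. JAK1 rose by 0.43 ± 0.059 and IRF2, a repressor of interferon targets, by 0.65 ± 0.11 (SE), with 13.5 and 15.2 CPM under VXN against 9.99 and 8.38 CPM under DMSO. Under BIX 6 of 33 targets rose and 0 fell, beside 10.9% higher and 12.2% lower among all genes tested. Those that rose include TRIM22 by 0.49 and EIF2AK2 by 0.31, and the median log2 fold change of the 33 targets was 0.12, against 0.001 over all genes. MAVS, the adaptor of the RNA sensors, averaged 84.7 CPM under BIX and 62.5 CPM under DMSO, a log2 fold change of 0.44 ± 0.050 (SE; edgeR adjusted p = 1.20e-10). SOCS1, an inhibitor of JAK kinases, averaged 13.4 CPM under BIX and 18.6 CPM under DMSO, and fell by 0.46 ± 0.099 on the log2 scale (SE; edgeR adjusted p = 0.000226). Under VXN in t-hESC SOCS1 was not called. Across the lines under DMSO SOCS1 averaged 0.167 CPM in HT29 and 18.6 CPM in t-hESC, a log2 difference of -6.74 ± 0.22 (SE; edgeR adjusted p = 3.49e-38).

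**Figure D3:**
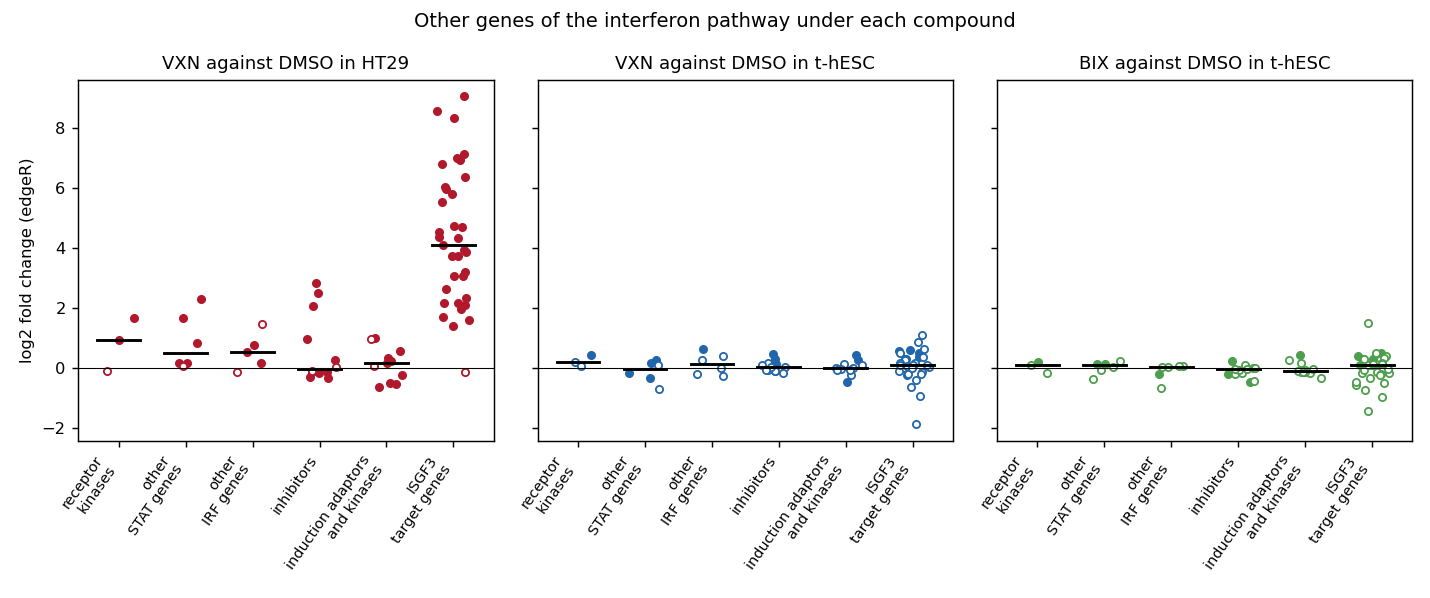
Log2 fold change against DMSO (y axis) of the genes of 6 pathway lists (x axis) for VXN in HT29, VXN in t-hESC and BIX in t-hESC; each point is a gene, filled where its edgeR adjusted p is under 0.05, and lines are list medians. Of 35 ISGF3 target genes 34 are called higher in HT29 (median 4.09 with the 6 of at most 3 counts under DMSO, whose fitted values are no bound), while in t-hESC the list medians are 0.11 under VXN and 0.12 under BIX.

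Genes with the pattern most like each member were found from the root mean square difference between log2 levels in the 5 groups, each gene centred on its own mean. For IRF7 the nearest gene was SQSTM1, at a difference of 0.12. For IRF9 the nearest with a symbol was SLC16A8 (0.127), for STAT2 KDM7A (0.056) and for IRF1 NLRP11 (0.0298). For the receptors they were PCMTD1 for IFNAR1 (0.0378), RNF146 for IFNAR2 (0.0266) and KCNE5 for IFNLR1 (0.0475). With 5 groups and 22495 genes a near match of this kind is a description only.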

How the data were processed

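The deposited table holds raw counts per gene and per repeat family for 10 libraries (TruSeq RNA v2, no strand mark, per the labels' protocols). Tools listed in the submitters' processing notes are STAR, DESeq2 1.34.0, FastQC 0.11.9 and fastp 0.20.1, and builds are hg38 and GRCh38. What each did, the counter and the annotation: not given in the sources used here. The authors' deposited tables give a log2 fold change and an adjusted p-value per gene, used here for calls and direction. A further 4 columns match no sample and were not used.

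Counts of the 60651 genes, without repeat families, went into edgeR 4.0.16 (R 4.3.3) with TMM factors, filterByExpr at a minimum count of 10, robust quasi-likelihood F test over 10 libraries without a replicate block, Benjamini-Hochberg adjustment over 22495 genes. The standard errors are the log2 fold change over the root of F. CPM use TMM-scaled library sizes. A count of 0 allows 3 counts, 0.123 to 0.22 CPM in a library. The series calls the 2 libraries of a group biological replicates. The p-values rest on a spread estimated over the 5 groups together and shared between genes. It has 5 residual and a median of 56.7 prior degrees of freedom. The common biological coefficient of variation, the spread beyond counting error, was 0.021. The p-values cover no spread beyond that of such replicates.

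The genes, lists and comparisons were chosen with earlier results of these data known. All 9 genes are named in each comparison; of other lists, up to 3 called genes with the smallest p and a mean of at least 1 CPM, or all of a count of 5 or fewer. SP110, the low end of a range, and SOCS1 under VXN in t-hESC were named after their values were seen. Transcript lengths were not used here, so levels are not compared between genes. Some genes of the lists are not reported here.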

Additional observations from a re-analysis of the deposited data

Results flagged for a closer look

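The VXN effect differed between HT29 and t-hESC by edgeR's test of that difference for 7 genes, beside 43.2% of all genes tested. On the log2 scale, VXN effect in HT29 minus VXN effect in t-hESC, the values were 2.28 for IRF9, 2.27 for IRF7, 1.24 for STAT2, 0.98 for IRF1, 0.59 for IFNLR1, 0.36 for IFNAR2 and -0.32 for IFNAR1. The call of IFNAR2 was lost in 10 of the 17 alternatives, that of IFNLR1 in 2 and that of IFNAR1 in 1. Groups of 2 libraries are too small for a check on outlying libraries.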

How the results depend on the processing

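Alternatives were other scaling factors, DESeq2 1.42.0, no count filter or a minimum count of 50, the compared groups alone, a replicate block and each library left out. Of 627 recomputed values of single genes 580 kept direction and call, 41 lost the call, 1 gained it and 5 changed sign, all of genes not called. Those came from leaving out 1 library: IRF1 under VXN in t-hESC then ran from -0.0524 to 0.121, with negative values without DMSO replicate 1 or VXN replicate 2. IRF1 under BIX ran from -0.157 to 0.0368, with positive values without DMSO replicate 2 or BIX replicate 2, and IRF7 under BIX from -0.33 to 0.0898, positive without BIX replicate 2. DESeq2 called 3158 genes under BIX (5199 with edgeR) and 4065 under VXN in t-hESC (6531 with edgeR), and 1 of the 9 genes under VXN in t-hESC where edgeR called 3. Leaving out each library in turn gave 1 to 2 of the 9 genes called under BIX, 1 to 3 under VXN in t-hESC and 7 to 8 under VXN in HT29. With a minimum count of 50 IFNB1 and IFNL1 were not tested, and 6 genes were called in HT29.

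Same-numbered libraries share only a number: their deviations correlated between -0.0808 and 0.034. In a fit with a replicate block the genes called numbered 5101 under BIX, 6442 under VXN in t-hESC and 13426 under VXN in HT29, and of the 9 genes 2, 3 and 8 were called. The depth limits the ligands: a sum of 0 over the 6 t-hESC libraries allows up to 0.029 CPM.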
